A study of Homo sapiens with 2 samples.

Results

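A set of 30 genes of the synaptic vesicle cycle and of regulated exocytosis, chosen by name for what their proteins do and with earlier results of these data known, was followed in 2 single-cell RNA libraries of a human neuroblastoma line. Of these 30 genes, 29 were matched by symbol among the 36027 genes of the deposited table, and SH3GL2 was not analysed here. Both libraries came from SK-N-BE(2)-C cells carrying the construct pIND-HRASV12, an established line in which doxycycline switches on HRASV12, a form of the GTPase HRAS that is locked in its active state. The induced library (666 cells) was from cells given 100 ng/ml doxycycline for 13 days, and the control library (956 cells) was from cells left without it for those 13 days. With 1 library in each group there was no replicate and no test, and the effects of HRASV12, of doxycycline and of the separate culture cannot be told apart. Every difference below therefore describes these 2 libraries, and each 95% interval covers counting error only.

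A synaptic vesicle is docked by RAB3 GTPases and active zone proteins, made ready by UNC13 proteins, and fused with the plasma membrane when a SNARE protein of the vesicle winds together with SNARE proteins of the target membrane. Synaptotagmins sense calcium for this step, complexins hold and then help the assembled SNAREs, NSF and its adaptors take the SNAREs apart again, and dynamin and amphiphysins retrieve the membrane. Neuroblastoma derives from the sympathoadrenal lineage, whose cells use the same machinery to release catecholamines from dense-core granules.

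The libraries held 80359736 counts (induced) and 95350640 counts (control), with medians of 111582 and 85821 counts per cell, and shared 0 cell barcodes. HRAS itself stood at 161 CPM (counts scaled to equal library totals) with doxycycline against 109 CPM without, and these counts do not tell the construct from the gene of the line. Of 10 neuroblastoma markers 9 reached 10 CPM, and of these 0 were at least 1.5-fold higher and 2 were lower: CHGA, a core protein of dense-core granules, stood at 446 against 1004 CPM, and DBH, an enzyme of noradrenaline synthesis, at 60.3 against 95.4 CPM. Of the markers of other cell types, the 3 of 5 Schwann and the 4 of 5 immune cell markers that were matched stayed below 10 CPM, and the others were not analysed here. The 5 fibroblast markers summed to 80.5 against 38.9 CPM, of which LUM made up 64.5 against 18.5 CPM, while PDGFRB was lower, at 6.46 against 16.3 CPM. The 7 endothelial markers summed to 74.0 against 104 CPM, of which EGFL7 made up 53.4 against 96.4 CPM. The other 6 each had a ratio above 1, among them ESAM at 10.7 against 3.22 CPM and KDR with 154 against 15 counts. The 5 epithelial markers summed to 46.6 against 27.2 CPM, of which KRT18 made up 19.2 against 4.69 CPM. Of that list CDH1 alone was lower, at 2.82 against 4.82 CPM. None of the matched markers was at 0 counts in both libraries. The induced library also held more cells with few mitochondrial and few MALAT1 counts: the mitochondrial percent had its 5th percentile at 1.44, against 8.52 in control cells. The part of these shifts in the results below was not tested, except where a value without the cells concerned is given.

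Members were called higher or lower at 1.5-fold on the log2(CPM + 1) scale, which understates the change of low genes, if they reached 10 CPM in either library, and 23 of the 29 did. Of these 23, 7 were higher in the induced library, namely RAB3A, SYT5, SYT11, STX1A, SNAP25, VAMP2 and NAPB, and 0 were lower. Over all 9017 genes that reached 10 CPM, 10.3% were higher and 7.73% were lower by the same rule. At 2-fold, 3 of 23 members were higher and 0 were lower, against 4.01% and 1.26% of all genes. The median log2 ratio of the 23 members was 0.34, beside -0.04 over all genes. Of the 23 log2 ratios 17 were above 0, beside 4181 of 9017 over all genes. With TMM scaling the median of all genes shifted to 0.08 and with DESeq2 size factors to 0.13. The split of all genes into higher and lower calls was 930 to 697 as reported, 1285 to 454 with TMM, 1472 to 371 with DESeq2 size factors and 732 to 1052 where ribosomal protein and mitochondrial genes were kept out of totals. The members split 8 to 0, 8 to 0 and 7 to 0 under these 3 scalings. In unthinned cells without those low in mitochondrial percent or MALAT1 (406 induced and 871 control), 7 members were higher and 0 lower. Of all 9107 genes measured in those cells, 837 were higher and 393 lower.

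**Figure D1:**
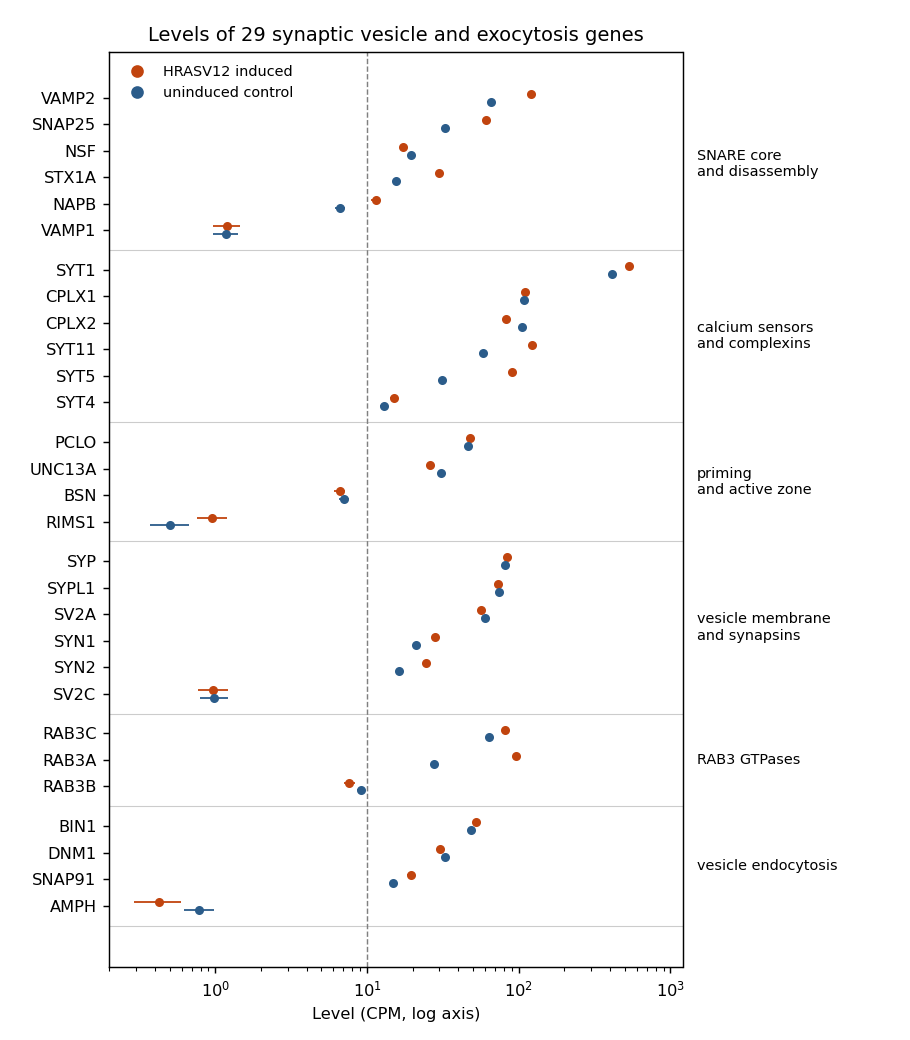
Level of each of 29 members in the induced (orange) and control (blue) library, in CPM on a log axis, with exact Poisson intervals, grouped by role; the dashed line marks 10 CPM. RAB3A, SYT5, SYT11 and the SNARE genes VAMP2, SNAP25 and STX1A stand apart between the libraries, while SYP, SYPL1, SV2A and CPLX1 nearly coincide.

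Over all cells, the SNARE genes of neuronal exocytosis were higher in the induced library by nearly the same factor. SNAP25 (ENSG00000132639.12), which supplies helices of the target membrane to the SNARE bundle, stood at 61.2 CPM with doxycycline against 32.8 CPM without. Its ratio was 1.87 (exact interval 1.78 to 1.95). STX1A (ENSG00000106089.12), syntaxin 1A, the other SNARE of the target membrane, stood at 29.8 and 15.6 CPM, a ratio of 1.91 (1.79 to 2.04). VAMP2 (ENSG00000220205.9), synaptobrevin 2, the SNARE of the vesicle, stood at 120.4 and 65.5 CPM, a ratio of 1.84 (1.78 to 1.90). The intervals of these 3 ratios overlapped. Among cells called G1, described below, the ratios of SNAP25 and VAMP2 were 2.17 (1.88 to 2.50) and 1.66 (1.52 to 1.81). Those 2 intervals did not overlap. VAMP1, the related synaptobrevin 1, was scarce, with 96 and 112 counts.

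The genes for taking SNAREs apart did not move as one. NSF, the ATPase that unwinds spent SNARE bundles, stood at 17.3 CPM with doxycycline against 19.6 CPM without, a ratio of 0.884 (0.824 to 0.948) that lay within 1.5-fold. NAPB (ENSG00000125814.17), the gene of the adaptor beta-SNAP, a brain relative of alpha-SNAP, stood at 11.4 and 6.67 CPM, a ratio of 1.71 (1.54 to 1.89). NAPB was close to the threshold: its log2 ratio was 0.69, and the lowest value over the alternatives was 0.48, so that it was not called with the mean of per-cell CPM, in thinned cells or with a pseudocount of 5 CPM.

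Among the calcium sensors, SYT5 and SYT11 were higher and the most heavily counted member, SYT1, was not past 1.5-fold. SYT5 (ENSG00000129990.15), a synaptotagmin of dense-core vesicles, stood at 90.01 CPM with doxycycline against 31.2 CPM without. Its ratio was 2.88 (2.76 to 3.01). SYT11 (ENSG00000132718.9), a synaptotagmin that does not bind calcium in the usual way, stood at 121.7 and 58.0 CPM, a ratio of 2.10 (2.03 to 2.17). SYT1, the fast calcium sensor of synaptic vesicles, stood at 529 and 412 CPM, a ratio of 1.28 (1.27 to 1.30). SYT4, a relative of SYT11 found on dense-core vesicles, stood at 15.1 and 12.9 CPM. The spread of ratios within this family, from 1.17 for SYT4 to 2.88 for SYT5, was far wider than their counting intervals.

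The complexins stood at or below the control level. CPLX1 stood at 110.8 CPM with doxycycline against 109.0 CPM without, and the interval of its ratio, 0.988 to 1.05, included 1. CPLX2 stood at 82.4 and 104.8 CPM, a ratio of 0.787 (0.763 to 0.812), and its log2 ratio of -0.34 was the lowest of the 23 measured members. That value stayed below 0 under all 14 alternatives, between -0.43 and -0.11. It did not pass 1.5-fold in any of them.

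The RAB3 genes differed most from each other. RAB3A (ENSG00000105649.10), the main vesicle GTPase of neurons, stood at 95.6 CPM with doxycycline against 27.8 CPM without. Its ratio of 3.44 (3.29 to 3.59) and log2 ratio of 1.75 were the highest of the measured members, and over the alternatives the log2 ratio lay between 1.29 and 1.90. RAB3C stood at 81.1 and 63.8 CPM, a ratio of 1.27 (1.23 to 1.32). RAB3B stayed under 10 CPM, with 615 and 870 counts and a ratio of 0.839 (0.755 to 0.931). The 250 bases before the RefSeq start sites of RAB3A and RAB3C are shown because these relatives differed so much; they are from GRCh38.p14, at chr19:18204043-18204292 on the minus strand and chr5:58582825-58583074 on the plus strand, and neither window held any of the motifs searched, so no letter is in capitals.
RAB3A: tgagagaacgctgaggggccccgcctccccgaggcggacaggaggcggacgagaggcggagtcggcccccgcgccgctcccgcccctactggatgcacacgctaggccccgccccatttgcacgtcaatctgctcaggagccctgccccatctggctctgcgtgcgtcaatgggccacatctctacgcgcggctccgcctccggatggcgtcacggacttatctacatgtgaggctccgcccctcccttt
RAB3C: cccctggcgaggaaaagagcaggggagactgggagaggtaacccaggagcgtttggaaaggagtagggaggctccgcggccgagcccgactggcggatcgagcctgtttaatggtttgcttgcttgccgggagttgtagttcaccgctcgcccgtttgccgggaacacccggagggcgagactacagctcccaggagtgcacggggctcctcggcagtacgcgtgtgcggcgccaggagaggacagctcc

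Genes for priming and for the active zone, the patch of membrane where vesicles dock, were close to level. UNC13A, which opens syntaxin so that SNAREs can assemble, stood at 26.2 CPM with doxycycline against 30.8 CPM without, a ratio of 0.849 (0.803 to 0.899). PCLO, the scaffold piccolo, stood at 47.9 and 46.4 CPM, and the interval of its ratio, 0.989 to 1.08, included 1. BSN, the related scaffold bassoon, had 531 and 671 counts and did not reach 10 CPM. RIMS1, which ties RAB3 to the active zone, had 77 and 48 counts, a ratio of 1.90 (1.31 to 2.79) at a level too low to be called.

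Of the proteins of the vesicle surface, the synapsins leaned higher and the membrane proteins were level. SYN1, synapsin 1, which tethers vesicles in the reserve pool, stood at 28.1 CPM with doxycycline against 21.0 CPM without, a ratio of 1.34 (1.26 to 1.42). SYN2, synapsin 2, stood at 24.6 and 16.3 CPM, a ratio of 1.51 (1.41 to 1.61). On the log2(CPM + 1) scale SYN2 came to 0.56 and was just outside the call, which it passed in 6 of 13 alternatives, among them TMM scaling (highest value 0.72). SYP, synaptophysin, the classical marker of these vesicles, stood at 83.1 and 81.1 CPM, and SV2A, a transporter-like vesicle glycoprotein, at 56.6 and 59.6 CPM. SYPL1, a synaptophysin relative that is also made outside neurons, stood at 73.4 and 74.6 CPM. SV2C was scarce, with 78 and 94 counts. The ratios of SYP and SV2A were 1.03 (0.992 to 1.06) and 0.950 (0.914 to 0.988).

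None of the 3 measured endocytosis genes passed 1.5-fold, and their ratios ran from 0.923 to 1.30. DNM1, neuronal dynamin, which severs the neck of the forming vesicle, stood at 30.2 CPM with doxycycline against 32.7 CPM without. BIN1, amphiphysin 2, stood at 52.2 and 48.7 CPM, and SNAP91, the clathrin adaptor AP180, at 19.4 and 14.9 CPM, a ratio of 1.30 (1.21 to 1.40). AMPH, amphiphysin 1, had 34 and 75 counts, a ratio of 0.538 (0.348 to 0.817). Under the floor of 10 CPM, AMPH was thus the member with the lowest ratio.

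The wider pathway was read from 110 further genes in 6 lists, of which 70 reached 10 CPM. Of these 70, 11 were at least 1.5-fold higher and 2 were lower by as much; their median log2 ratio was 0.17. Over all measured genes these shares were 10.3% and 7.73%, with a median of -0.04, and the scalings that moved the split of all genes moved this one too. The split was 16 to 1 with TMM scaling, 16 to 0 with DESeq2 size factors and 8 to 4 where ribosomal protein and mitochondrial genes were kept out of totals. Among SNARE proteins and partners 3 of 15 were higher and 0 lower. STX4, a syntaxin of constitutive and regulated release, stood at 18.9 CPM with doxycycline against 9.43 CPM without, and STXBP5, tomosyn, which binds syntaxin in place of VAMP2, at 29.4 and 15.5 CPM. STX6 and STX12, endosomal syntaxins, were the lowest of that list, at 19.5 and 24.8 CPM and at 33.3 and 35.01 CPM.

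Priming and active zone genes of the wider lists went both ways, with 2 of 13 higher and 1 lower, against 10.3% and 7.73% of all measured genes. LIN7B, a scaffold of the CASK complex, stood at 53.9 CPM with doxycycline against 18.8 CPM without. CADPS, which primes dense-core granules, stood at 41.6 and 22.9 CPM. RIMS3 and RIMS2, active zone proteins of the RIM family, were the lowest, at 16.7 and 26.4 CPM and at 38.0 and 54.6 CPM. RPH3A, rabphilin, an effector of RAB3A, was the one further calcium sensor that reached the floor, and it stood at 30.2 and 50.9 CPM, a ratio of 0.594.

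Of 9 further genes of the vesicle membrane, 2 were higher and 0 lower. Beside each such count here, 10.3% of all measured genes were higher and 7.73% lower. SYNGR3, synaptogyrin 3, stood at 22.9 CPM with doxycycline against 7.61 CPM without, and SCAMP3 at 77.0 and 50.4 CPM, while SCAMP5 (65.3 and 69.1 CPM) and SCAMP1 (40.6 and 36.6 CPM) were the lowest. Among RAB GTPases and regulators 2 of 12 were higher and 0 lower. RAB5A, a GTPase of early endosomes, stood at 23.9 and 15.5 CPM. RAB3IP and RAB27A were the lowest, at 7.38 and 11.1 CPM and at 11.1 and 15.8 CPM. RAB27B, a GTPase of granule docking chosen after its values were seen, had 536 counts with doxycycline against 36 without, a ratio of 17.7, but stayed under 10 CPM. Of 20 endocytosis genes 2 were higher, near the share of all genes, and 0 were lower. AP2M1, the cargo-binding subunit of the AP-2 adaptor, stood at 632 and 384 CPM and SH3GLB1 at 81.1 and 53.5 CPM. EPN2 (11.8 and 16.1 CPM) and DNM2 (32.8 and 40.1 CPM) were the lowest.

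**Figure D2:**
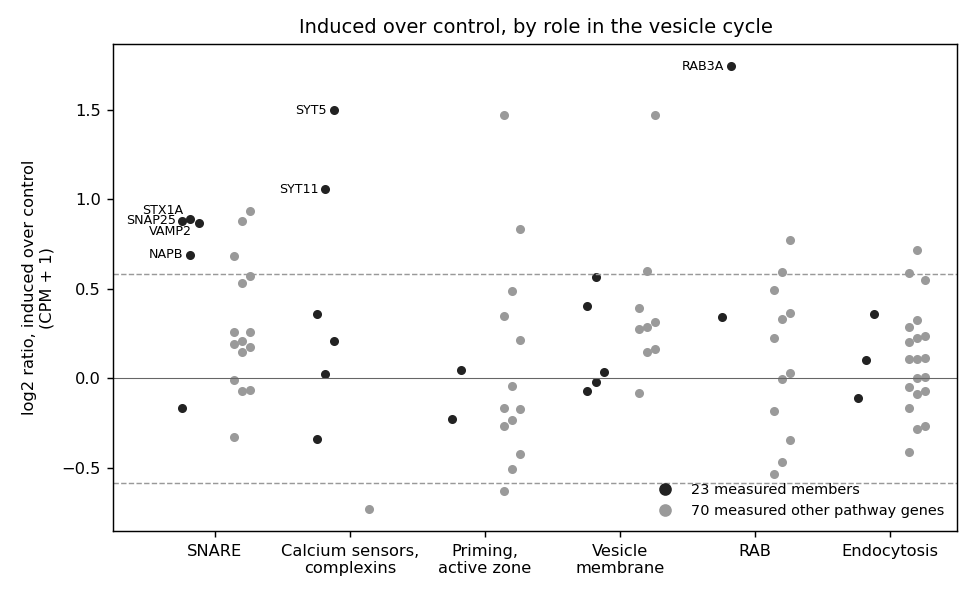
Log2 ratio of induced over control, on the log2(CPM + 1) scale, of 23 measured members (black) and 70 measured other pathway genes (grey) by role; dashed lines mark 1.5-fold. The 7 called members lie in the SNARE, calcium sensor and RAB columns, and no measured member of the active zone, vesicle membrane or endocytosis columns passed either line.

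Many neuronal exocytosis genes are silenced outside neurons by REST, a repressor that binds the element RE1. REST stood at 15.2 CPM with doxycycline against 9.95 CPM without, a log2 ratio of 0.57, just under the call. Of 7 measured genes of REST and its co-repressors 0 were higher and 2 were lower, against 10.3% and 7.73% of all measured genes, namely HDAC1 (25.5 and 48.3 CPM) and EHMT2 (29.9 and 46.4 CPM). KDM1A and RCOR1 stood at 64.9 and 87.4 CPM and at 16.0 and 22.3 CPM.

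Promoter windows of 250 bases before to 50 bases after the start were taken from RefSeq (GRCh38.p14) for 28 of the 30 genes, 36 windows in all, with several for genes that have several starts. Both strands were searched for the first arm of RE1 (TTCAGCACC), its second arm, and a joined core of both that overlaps the first arm, for the AP-1 element TGANTCA, the cyclic AMP response element TGACGTCA and the E-box CACGTG. SYN1 held the joined core, which was in 0.0513% of all 35116 windows, and UNC13A held both arms further apart. The first arm was in 0.376% and the second in 0.259% of all windows. The 250 bases before both starts are shown because they are the windows of members with RE1 letters; capitals mark the first arm, the joined core and TGACGTCA in SYN1 (chrX:47619858-47620107, minus strand) and CACGTG and the second arm, which is on the opposite strand, in UNC13A (chr19:17688355-17688604, minus strand). The first arm of UNC13A lies past its start, at bases 7 to 15.
SYN1: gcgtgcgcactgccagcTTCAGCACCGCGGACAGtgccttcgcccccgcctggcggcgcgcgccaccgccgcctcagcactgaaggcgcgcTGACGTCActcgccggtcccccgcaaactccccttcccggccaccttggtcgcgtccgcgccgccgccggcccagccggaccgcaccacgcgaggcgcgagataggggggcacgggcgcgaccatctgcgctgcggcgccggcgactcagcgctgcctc
UNC13A: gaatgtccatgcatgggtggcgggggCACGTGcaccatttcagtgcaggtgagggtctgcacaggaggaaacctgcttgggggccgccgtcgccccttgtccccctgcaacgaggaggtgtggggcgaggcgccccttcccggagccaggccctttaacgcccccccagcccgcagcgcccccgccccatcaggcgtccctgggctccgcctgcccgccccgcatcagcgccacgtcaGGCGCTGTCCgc

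SYN1 and UNC13A, the members with RE1 letters in these windows, were both within 1.5-fold between the libraries. TGANTCA, in 7.71% of all windows, was found in those of RAB3B, RIMS1 and SYP, and TGACGTCA, in 1.85% of all windows, in those of SYN1 and SH3GL2. None of the 6 called members with a window (STX1A, VAMP2, NAPB, SYT5, SYT11 and RAB3A) held any of these letters, which says only that they are not in these windows. Member windows were rich in G and C, with a median of 70.2% against 58.7% over all windows, and in CG pairs, with a median of 30.5 against 14 per window. The single window of SV2A was among the poorest, with 37.3% G and C and 3 CG pairs, as were later starts of RIMS1 and SNAP91.

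The members were next read cell by cell, with every cell thinned to 53000 counts so that depth was equal. This kept 562 induced and 766 control cells and left out 104 and 190. RAB3A had at least 1 count in 82.7% of thinned induced cells (79.4 to 85.8, Clopper-Pearson) against 62.9% without doxycycline (59.4 to 66.4), and unthinned in 83.3% and 74.8%. SYT5 was found in 85.8% (82.6 to 88.5) and 75.2% (72.0 to 78.2) of thinned cells, and STX1A in 72.1% (68.2 to 75.7) and 52.6% (49.0 to 56.2). CPLX2 went the other way, with 87.7% (84.7 to 90.3) of induced and 97.3% (95.8 to 98.3) of control cells. SYP had the same mean level in both libraries but was found in 90.9% (88.2 to 93.2) of induced and 98.2% (97.0 to 99.0) of control cells, with medians of 4 counts in each. No cell type that should lack these genes was in the cultures, so the share that free RNA gives could not be measured.

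Induced cells differed more from one another than control cells did. The summed counts of the 29 members had a median of 17.9 per 10000 counts in induced cells, with the 5th and 95th percentiles at 7.55 and 32.1. In control cells the median was 13.8 and the percentiles were 9.25 and 20.2. A share of 73.7% of induced cells (69.8 to 77.3) exceeded the control median, 35.1% (31.1 to 39.2) exceeded the control 95th percentile, and 9.07% (6.83 to 11.8) fell short of the control 5th percentile. SYT1 alone made up 29.5% of the summed counts, and without it these shares were 73.7%, 39.5% and 8.90%. Without the 3 most counted members (SYT1, CPLX1 and CPLX2) they were 79.0%, 41.6% and 6.41% (4.53 to 8.76). In a comparison chosen after the data were seen, cells under the control 5th percentile of mitochondrial percent or of MALAT1 were left out. Among the 345 induced and 691 control cells left, the 95th percentile was 4.07 times the 5th in induced and 2.12 times in control cells, against 4.25 and 2.18 times over all thinned cells. Among G1 cells these values were 5.04 and 3.03.

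**Figure D3:**
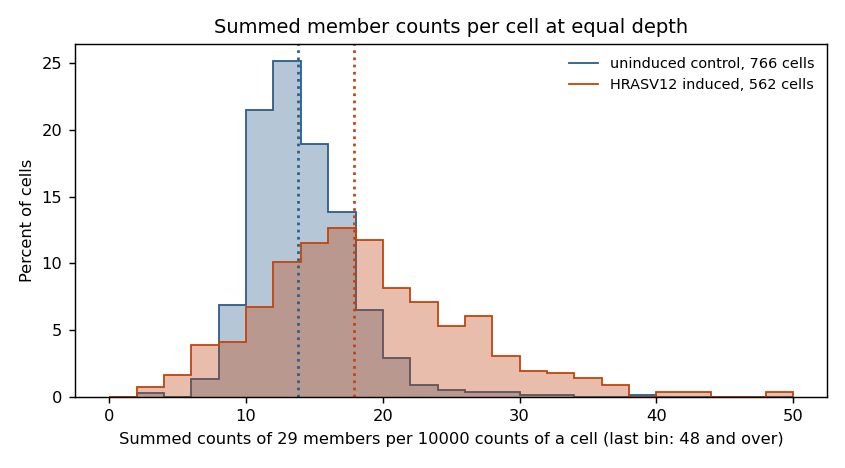
Percent of cells by summed counts of the 29 members per 10000 counts, in bins of 2, for 766 control (blue) and 562 induced (orange) cells thinned to equal depth; dotted lines are the medians of 13.8 and 17.9. The 5th and 95th percentiles were 7.55 and 32.1 in induced cells and 9.25 and 20.2 in control cells, while the lowest occupied bin was the same.

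The variance of counts divided by their mean, which is 1 for pure counting error, was higher in induced cells for 23 of 23 measured members. The same held for 85.6% of all 9017 genes, so the direction itself is common. The median over members was 2.31 in induced and 1.45 in control cells, beside 1.53 and 1.29 over all genes. SYT1 (10.6 and 6.94), RAB3A (4.68 and 2.78) and SYT5 (4.07 and 1.76) were the widest in induced cells, and NSF (1.19 and 1.13) was close to counting error in both libraries. The part of the mean level in these ratios was not tested; CPLX2, lower in induced cells, had 2.39 and 2.03. SYT4 was unevenly spread in both libraries: the top 10% of cells by its count held 53.8% of its counts in induced and 56.7% in control cells.

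Members also varied together across induced cells. Over the 253 pairs of measured members, the median Spearman rho was 0.16 in 562 induced cells and 0.04 in 766 control cells, and 37.9% of pairs in induced and 1.19% in control cells were above 0.2. Over all pairs of the 9017 genes, 2.67% and 0.731% were above 0.2, and over pairs of the 70 other pathway genes 2.19% and 0.248%. These are descriptions across cells of 1 library each, whose counts share the same total, and the genes compared were not matched for level. The highest values in induced cells joined VAMP2, SYT5 and RAB3A, with rho of 0.51 for VAMP2 and RAB3A, 0.50 for SYT5 and RAB3A and 0.50 for VAMP2 and SYT5, against 0.14, 0.21 and 0.09 in control cells. SYT1 and SYT11 came next, with 0.49 against 0.11. VAMP2, SYT5 and RAB3A each stood higher in induced cells of G1 than in those of S and of G2 or M. VAMP2 stood at 135.2, 80.1 and 92.4 CPM, SYT5 at 113.4, 54.7 and 46.8 CPM and RAB3A at 107.2, 59.3 and 57.8 CPM. The part of phase and of level in these correlations was not tested. SYPL1 ran opposite to many of the neuronal members. Its lowest values in induced cells were -0.28 for CPLX2 and -0.28 for RAB3A, against -0.10 and -0.13 in control cells. Of its 22 pairs in induced cells 21 were below 0, with a median of -0.15. Some were close to level, such as PCLO at -0.01 and SYP at -0.02. NSF and SYT4 had the next lowest medians over their pairs in induced cells, at 0.03 and 0.02.

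**Figure D4:**
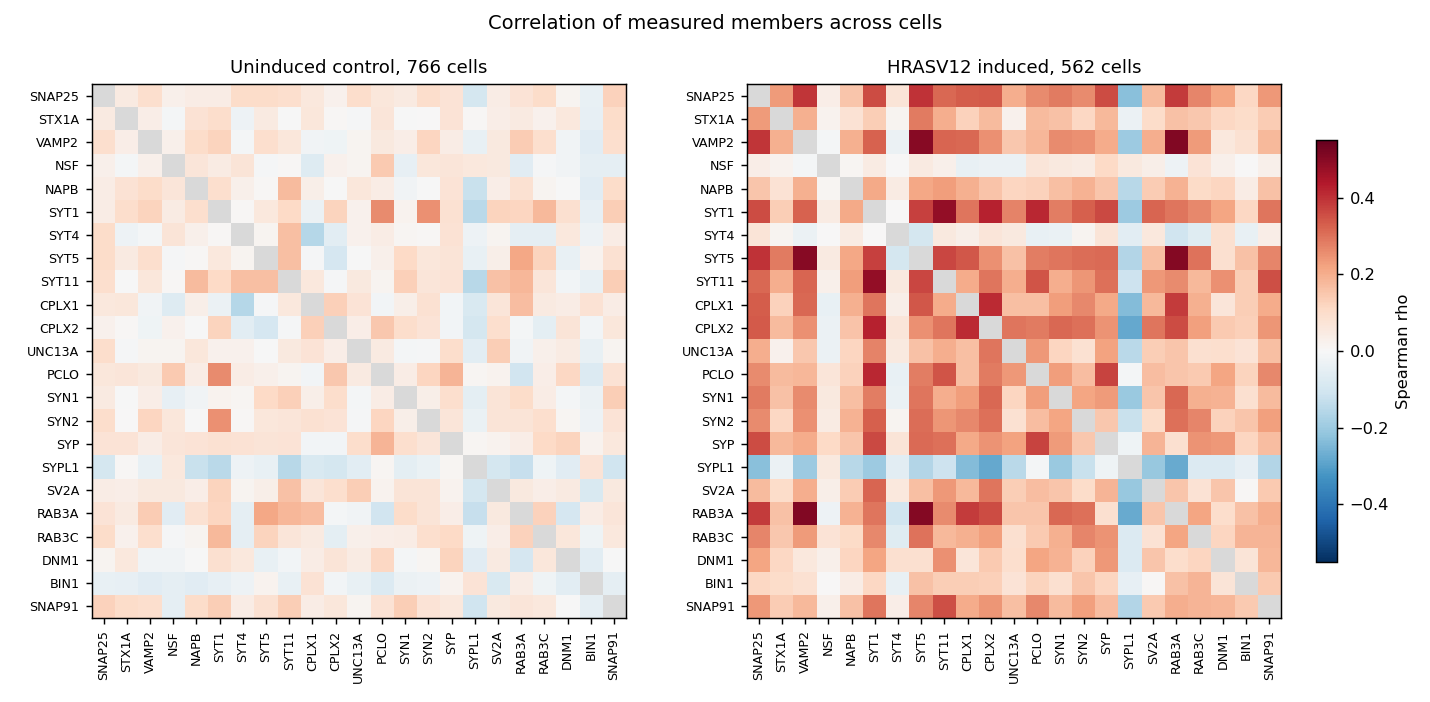
Spearman rho across cells for each pair of 23 measured members in control (left) and induced (right) cells at equal depth. Most pairs are above 0 in induced cells, up to 0.51 for VAMP2 and RAB3A, whereas the highest control pair is at 0.26, and the SYPL1 row is below 0 in most places.

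Cells of the 2 libraries were unequally spread over the cell cycle, so ratios were also read within called phases. Scores placed 61.9% of induced cells (57.8 to 66.0) and 19.97% of control cells (17.2 to 22.98) in G1, calls that free RNA can also move. In control cells themselves RAB3A stood at 48.3 CPM in G1 and 19.1 CPM in G2 or M, and SYT5 at 42.5 and 26.5 CPM. Values by phase are from thinned cells, whereas ratios over all cells are from unthinned sums. Within G1 cells (348 induced and 153 control) RAB3A stood at 107.2 against 48.3 CPM, a ratio of 2.22 (1.99 to 2.48). Its ratio was 2.18 (1.83 to 2.59) among S cells and 3.02 (2.63 to 3.48) in G2 or M. Over all unthinned cells the ratio of RAB3A was 3.44, and over all thinned cells its mean counts were 4.69 and 1.46. SYT5 had a ratio of 2.66 (2.38 to 2.99) in G1, 1.89 (1.59 to 2.25) among S cells, and one of 1.77 (1.54 to 2.03) in G2 or M. SYT11 was steadier, at 1.87, 2.22 and 1.88.

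The SNARE genes also had their highest ratios among G1 cells. SNAP25 had a ratio of 2.17 (1.88 to 2.50) in G1, 1.55 (1.31 to 1.84) among S cells, and one of 1.56 (1.38 to 1.76) in G2 or M. VAMP2 had 1.66 (1.52 to 1.81) in G1 but 1.39 (1.21 to 1.59) and 1.43 (1.30 to 1.57) in the other phases, below its 1.84 over all unthinned cells. Over all thinned cells the mean counts of VAMP2 were 6.22 and 3.49. STX1A had 2.03 (1.68 to 2.46) in G1, and in S its interval of 0.969 to 1.65 included 1. SYT4 had a ratio of 1.68 (1.39 to 2.02) in G2 or M, while its intervals in G1 (0.679 to 1.04) and S (0.489 to 1.25) included 1. CPLX2 was near level in G1, at 0.963 (0.878 to 1.06), and lower in G2 or M, at 0.739 (0.677 to 0.807). Whether ratios differ between phases beyond the variation of cells was not tested.

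**Figure D5:**
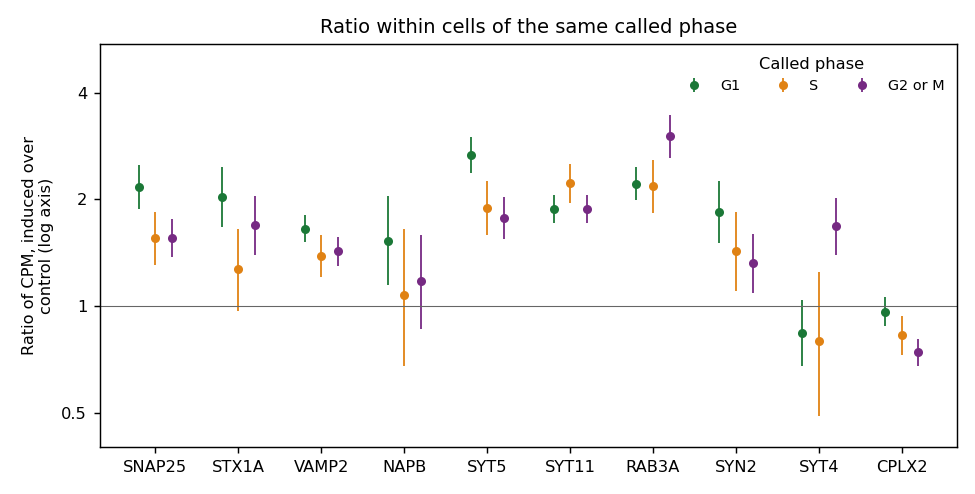
Ratio of CPM, induced over control, within thinned cells called G1, S or G2 and M, on a log axis with exact conditional intervals, for the 7 called members and for SYN2, SYT4 and CPLX2. The 7 called members have ratios above 1 in each phase, with the NAPB intervals in S and G2 or M and the STX1A interval in S reaching 1.

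Within the induced library, 6 of 23 measured members rose in order over cells grouped by HRAS counts, 4 fell in order and 13 had no steady order. In control cells 6 rose and 8 fell. Order was read from the pooled CPM of each group alone. The share of all measured genes in such an order was not computed, so whether members differ from other genes was not tested. In induced cells the intervals of the lowest and highest HRAS groups overlapped for STX1A, SYT1, BIN1, NSF and SYP. For RAB3A, SYT5, CPLX1, CPLX2 and DNM1 they did not overlap. RAB3A stood at 72.6 CPM (64.0 to 82.1) in 66 induced cells with 0 to 3 HRAS counts, at 85.4 CPM (81.0 to 90.1) in 303 cells with 4 to 9 and at 98.9 CPM (92.9 to 105.2) in 193 cells with at least 10. SYT5 stood at 69.5, 84.4 and 102.8 CPM in the same cells. In control cells both ran the other way, RAB3A from 29.4 to 27.9 and 19.4 CPM and SYT5 from 34.6 to 29.6 and 24.97 CPM. CPLX1, which was level between the libraries, rose from 78.0 to 109.5 and 124.9 CPM over the same induced cells. In control cells CPLX1 went from 105.3 to 109.3 and 113.2 CPM. CPLX2 went from 59.7 to 83.01 and 84.9 CPM over the same induced cells, and rose in control cells too, from 95.9 to 104.6 and 114.6 CPM. SYT11, at 125.2, 121.2 and 133.2 CPM, had no steady order in induced cells. DNM1 fell from 41.2 to 30.9 and 29.4 CPM and NSF from 20.9 to 17.4 and 16.6 CPM in induced cells. These intervals are of counts pooled over cells and leave out the spread between cells. RAB3A and SYT5 also differed between called phases. The part of phase, of mitochondrial percent and of MALAT1 in the order over HRAS groups was not tested.

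Thinned cells were also grouped by counts of the mesenchymal gene VIM, in a comparison chosen after the data were seen. In the tertile of induced cells with most VIM counts (183 cells) SYPL1 stood at 101.2 CPM, against 58.1 CPM in the lowest tertile (191 cells). CPLX2 stood at 61.7 against 86.4 CPM and SYT1 at 472 against 594 CPM in the same cells. Control cells differed in the same directions between their highest and lowest tertiles, with SYPL1 at 83.8 against 75.8 CPM, CPLX2 at 96.5 against 107.1 CPM and SYT1 at 386 against 412 CPM. RAB3A was highest in the middle tertile, at 121.5 CPM, with 73.6 CPM in the lowest and 70.3 CPM in the highest, and the middle tertile also had the lowest median of MALAT1 (897 CPM, against 2518 and 2641). In 52 induced cells with at least 1 count of ANXA1, the summed members stood at 1442 CPM against 1904 CPM in the 510 cells without, with SYT1 at 353 against 577 CPM and RAB3A at 111.8 against 86.2 CPM. Those 52 cells had a median of 420 CPM of MALAT1 against 2245 in the 510 others, and the part of this in the difference was not tested.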

How the data were processed

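Libraries were made with the 10x Genomics Chromium 3' chemistry, per the labels. The authors deposited whole-number counts, 36027 genes by 1622 cells. Kallisto and bustools are named in the submitters' processing notes; the build and the tool versions are not given here. The authors also deposited the type of each cell and its mitochondrial percent, per the file headers, and mark all 1622 cells as singlets. Counting at the 3' end gives no measure of isoforms, and reads shared by near-identical genes can be lost.

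Each library's counts were added up over cells and scaled to CPM. A log2 ratio has a pseudocount of 1 CPM. Levels have exact Poisson, ratios exact conditional and shares Clopper-Pearson intervals, at 95%. Phases were scored with scanpy 1.11.5. For scaling alternatives, edgeR 4.0.16 gave TMM factors and DESeq2 1.42.0 size factors; neither ran a test. The calculation was tested on simulated data. The members, lists and comparisons were chosen with earlier results of these data known. All members were named, and of each further list the 2 highest and 2 lowest measured genes; some of these are not reported here.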

Additional observations from a re-analysis of the deposited data

How the results depend on the processing

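No paired analysis was possible because each group has 1 library. The count of members at least 1.5-fold higher lay between 5 and 8 over 14 alternatives, that of members lower was 0 in each, and the median log2 ratio of members lay between 0.10 (no filter on low genes) and 0.50 (DESeq2 size factors). Over all genes the number higher lay between 375 of 3285 (filter at 50 CPM) and 1689 of 35957 (no filter). The number of all genes lower lay between 214 and 1130 in the same 2 settings. Of the 7 called members 6 kept their call in every alternative in which they reached the floor, the exception being NAPB. Counts for the other pathway genes moved more. The number higher was 7 with a pseudocount of 5 CPM (749 of 9017 over all genes) and 17 with no filter (1689 of 35957). It was 5 with a filter at 50 CPM (375 of 3285). The number lower was 1 with TMM scaling, the mean of per-cell CPM, cells without the 5% with most counts, thinned cells, a pseudocount of 5 CPM or a filter at 50 CPM. It was 0 with DESeq2 size factors, 0 among cells within the MALAT1 and mitochondrial limit, 4 where ribosomal protein and mitochondrial genes were kept out of totals, and 6 with no filter. Their median log2 ratio was 0.28 with TMM scaling, 0.32 with DESeq2 size factors and 0.29 with the filter at 50 CPM. The filters change which genes are counted; for the other settings the cause was not tested. Members with under 200 counts in both libraries (VAMP1, RIMS1, SV2C and AMPH) are limited by depth.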
